A study of Mus musculus with 6 samples.

Results

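The small leucine-rich proteoglycans (SLRPs) are secreted matrix proteins built around a curved stack of leucine-rich repeats, many of which carry glycosaminoglycan chains. The 10 family genes described here are Bgn, Dcn, Aspn, Fmod, Lum, Prelp, Kera, Epyc, Ogn and Chad. They were chosen by name as family members and not by their levels, and all 10 were found among the 36711 genes in the files. Gene expression was measured by RNA sequencing of total RNA from knee cartilage of C57/Bl6 mice at 3 months of age, in 3 libraries of wild-type (WT) mice and 3 of miR-455 null mice. The null mice carry a constitutive deletion made with CRISPR-Cas9 within the gene of the microRNA miR-455, after which neither mature form is whole; it is not limited to cartilage, and the WT mice carry the intact gene. The sex of the animals was not stated, and whether each library came from a separate animal was not stated either, so the p-values describe the spread from library to library, which may be technical. The values are the authors' normalised counts. They were not whole numbers, and their like totals in all libraries were those of abundances per transcript length, so they are called abundances below and levels of different genes are set side by side only on that scale.

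SLRPs bind the surface of collagen fibrils and help to set fibril diameter and spacing, and several of them also bind growth factors of the TGF-beta family. They are sorted into classes by sequence and gene structure. Class I holds biglycan (Bgn) and decorin (Dcn), which carry chondroitin or dermatan sulfate, and asporin (Aspn), which carries a run of aspartate residues instead. Class II holds fibromodulin (Fmod), lumican (Lum), keratocan (Kera) and PRELP (Prelp), of which the first 3 can carry keratan sulfate. Class III holds epiphycan (Epyc) and osteoglycin (Ogn), and chondroadherin (Chad), a cartilage protein that binds integrins, is placed in class IV. In cartilage, biglycan is concentrated around the chondrocyte, while decorin lies mostly in the matrix between cells.

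The question put to these genes was whether they differ between WT and miR-455 null cartilage. A microRNA pairs through its seed, bases 2 to 8, with complementary letters in 3′UTRs, so the seeds and their matches in the members are shown first. The mature sequences below are those of RefSeq on build GRCm38.p6, with the seed in capitals. They come from the plus strand of chromosome 4, within the host gene Col27a1, at positions 63256904 to 63256924 for miR-455-3p and 63256867 to 63256888 for miR-455-5p.
miR-455-3p: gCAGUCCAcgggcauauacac
miR-455-5p: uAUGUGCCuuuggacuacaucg

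The longest annotated 3′UTR of each gene (GENCODE, mm10) was searched on the transcribed strand. The 7 letters complementary to the miR-455-3p seed, TGGACTG, stood in 11.9% of 21045 genes, and those for miR-455-5p, GGCACAT, stood in 7.92%. The 6-letter words within them, GGACTG and GCACAT, which pair with bases 2 to 7, stood in 30.2% and 26.3%. Of the 10 members, 1 held a 7-letter match and 3 held a match of 6 letters or more. The 7-letter match lay in Prelp, at base 318 of a 3′UTR of 2302 bases, and was followed by an A; TGGACTGA stood in 3.56% of genes. Bgn held 1 match of 6 letters to miR-455-5p and Aspn held 2. The other 7 members held none of these words in the annotated 3′UTR. The matching stretches are given on the strand of the gene, with the match in capitals.
Prelp, chr1:133912274-133912296, minus strand, miR-455-3p: ctgggccaTGGACTGacatctta
Bgn, chrX:73494927-73494948, plus strand, miR-455-5p: gcatatatGCACATggcctggc
Aspn, chr13:49566809-49566830, plus strand, miR-455-5p: gtccttctGCACATgaatgatt
Aspn, chr13:49567397-49567418, plus strand, miR-455-5p: tcaaatatGCACATtgggtaat

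Several members are neighbours in the mouse genome (mm10). Dcn, Lum, Kera and Epyc follow each other on the plus strand of chromosome 10, from base 97479609, where Dcn begins, to base 97682454, where Epyc ends. Aspn and Ogn lie on chromosome 13, with another family gene, Omd, between them. Prelp and Fmod lie on chromosome 1, Chad on chromosome 11 and Bgn on the X chromosome.

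Total abundance lay between 917819 and 1135956 per library, and between 83.3% and 92.6% of reads aligned. The depth is unknown, as read numbers per gene were not stated. The libraries held much RNA of other tissues than the labelled chondrocytes. Erythroid genes made up 26.3% to 27.1% of the total in WT libraries and 21.5%, 19.9% and 11.4% in null 1 to 3, and neutrophil genes made up 8.56% to 10.3% in WT and 8.29%, 12.5% and 20.4% in null. Of the defining genes of chondrocytes, Col2a1 was at 18.4 to 21.6 in WT, against 24.8, 63.8 and 31.1 in null. Acan was at 3.06 to 7.15 over all libraries, Sox9 was at 0.623 to 1.32, and Matn1 was listed at 0 in WT 2. The most abundant genes of the chondrocyte list were Cytl1, at 92.6 to 158, and Comp, at 35.6 to 64.3. Their ratios of means, null over WT, were 0.973 and 1.31. Null 1 stood apart in the summed abundance of skeletal muscle genes, at 209.5 against 45.8 to 63.3 in WT and 73.1 and 85.0 in null 2 and null 3. Values without null 1 are therefore given beside those with it for the members in the fit and for the counts of the lists. Null 3 also stood apart, in the erythroid and neutrophil shares. It was the highest library for 3818 genes, against 2305 for null 1. Results without null 3 are among those with each library left out, at the end. In a bulk sample, fewer cells of a type and less RNA per cell cannot be told apart.

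The family sum was made up mostly of 3 genes. The summed abundance of the 10 members was 279.5, 286 and 274 in WT 1 to 3 and 524, 312 and 281 in null 1 to 3 (means 280 ± 6.04 and 372 ± 132, SD, n = 3). Null 1 was far above the rest, null 3 was within the WT range, and the ratio of means of 1.33 became 1.06 without null 1. The sum made up 0.0246%, 0.0306% and 0.0257% of the total in WT 1 to 3, against 0.0570%, 0.0320% and 0.0286% in null 1 to 3. Bgn, Dcn and Chad together gave 82.0% to 85.1% of the family sum in each library. By class, the WT means were 70.7% ± 1.82 for class I, 12.9% ± 1.09 for class II, 1.69% ± 0.270 for class III and 14.7% ± 3.17 for class IV, and the null means were 70.5% ± 5.01, 12.5% ± 0.657, 1.86% ± 0.299 and 15.1% ± 4.75 (SD, n = 3). The ranges of WT and null overlapped for each class.

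**Figure D1:**
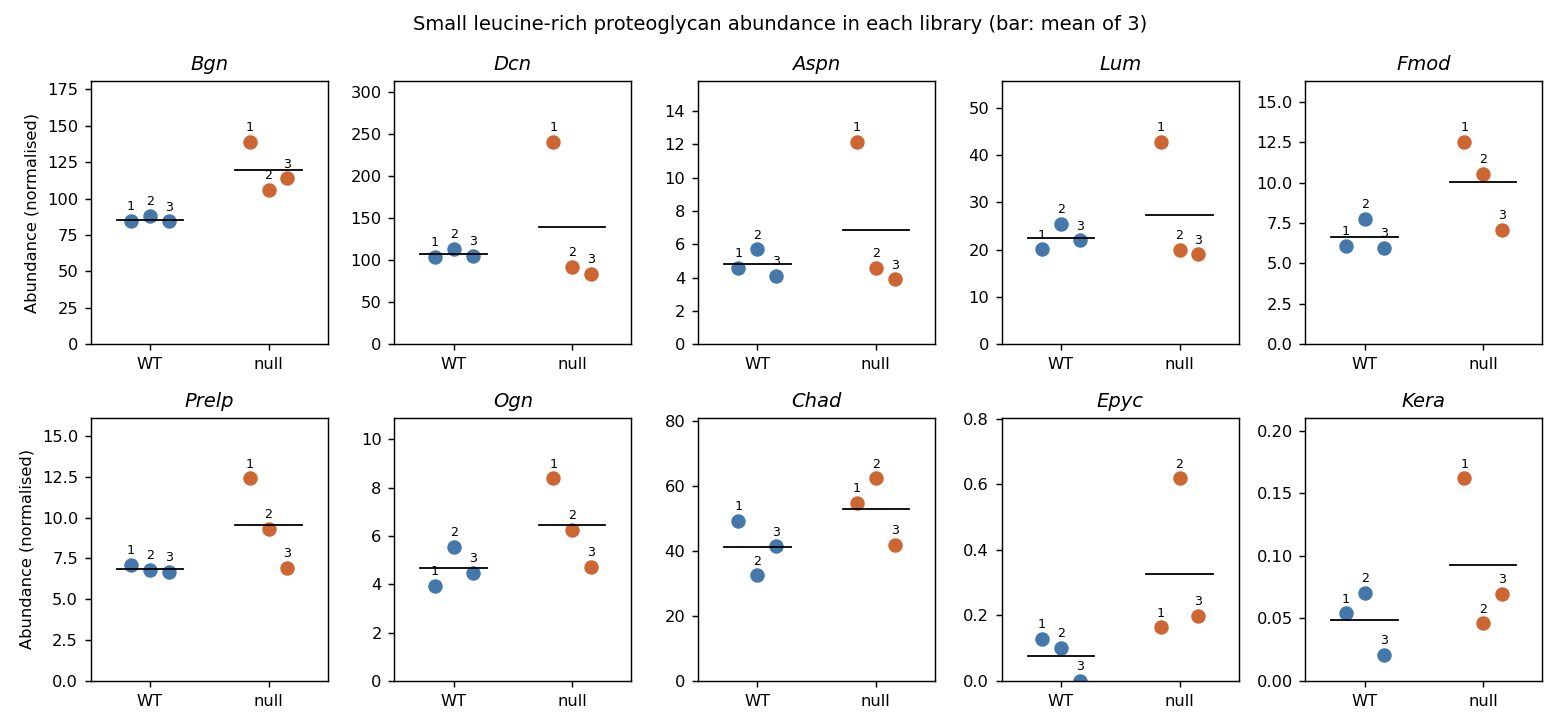
Abundance of the 10 members in each library (linear axis in authors' normalised abundance, one panel a gene), with points numbered by library and a bar at the mean of each group (n = 3). Bgn and Epyc are the members whose null points all lie above all WT points, and null 1 is the highest point for 8 of the 10.

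Of the 10 members, 8 reached a mean abundance of 1 and entered the fit, and Epyc and Kera did not. Each gene was tested with limma on log2(abundance + 0.5), with Benjamini-Hochberg adjustment over 12813 genes; fold changes on that scale understate those of low genes. In counts of genes with a higher or lower mean, here and below, the mean is that of these log2 values. All 8 members had a higher mean in null, as did 6936 of the 12813 genes. None passed an adjusted p of 0.05 (limma), where 4 genes, or 0.0312%, did so. At an unadjusted limma p under 0.05, 2 of the 8, Bgn and Fmod, were higher in null, against a background of 3.25% of genes, and no member was lower, against 2.33%. Every null library lay above every WT library for 1 of the 8, Bgn, where 6.27% of genes did so; no member lay wholly below, as 5.07% did. The median log2 fold change of the 8 was 0.39, beside 0.02 over all genes tested. Null 1 was the highest of the 6 libraries for 7 of the 8, and for 2305 of the 12813 genes. Without null 1, 5 of the 8 had a higher mean and 3 a lower one, and the median log2 fold change was 0.21, beside 0.02 over all genes.

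Biglycan was the member that separated the genotypes at a high level. Bgn was at 84.6, 88.0 and 84.3 in WT, against 139, 106 and 114 in null (means 85.6 ± 2.03 and 120 ± 17.2, SD, n = 3). The WT libraries lay close together, and the lowest null library, null 2, was above all of them. The ratio of means was 1.40 and the log2 fold change was 0.47 ± 0.13 (SE), with a 95% interval of 0.16 to 0.78 and an adjusted p of 0.810 by limma (unadjusted 0.0085). An exact two-sided permutation test gave p = 0.1, the smallest that 3 libraries against 3 allow. Without null 1, both remaining null libraries were still above every WT library, with a ratio of 1.28 and a log2 fold change of 0.36 ± 0.10 (unadjusted p = 0.013, adjusted p = 0.201, limma). At that unadjusted p without null 1, 11.3% of genes were higher. The share of genes with null 2 and null 3 above every WT library was not counted, and 17.3% had both below.

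Since Bgn is X-linked, genes that mark sex were set beside it. The Y-linked genes Ddx3y (15.8 to 21.3), Eif2s3y (33.5 to 48.7), Kdm5d (3.46 to 5.14) and Uty (3.78 to 5.72) were present in every library, and Xist was not analysed here. Eif2s3y, which encodes a translation initiation subunit, was lower in all null libraries (41.7, 42.3 and 33.5) than in any WT library (46.0 to 48.7), while the other 3 overlapped between the groups, with ratios of means of 0.897 for Ddx3y, 1.13 for Kdm5d and 1.05 for Uty. Without null 1, Ddx3y lay below every WT library and Kdm5d above, with ratios of 0.823 and 1.24. With all libraries no Y-linked gene passed the unadjusted p (limma).

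Decorin, the most abundant member in WT, went the other way in null 2 and null 3. Dcn was at 104, 114 and 105 in WT, against 241, 92.4 and 83.7 in null (means 107 ± 5.57 and 139 ± 88.4, SD, n = 3). Null 1 was higher than any other library, and null 2 and null 3 were lower than any WT library. With all libraries the log2 fold change was 0.20 ± 0.38 (SE; interval −0.70 to 1.10; adjusted p = 0.899, limma). Without null 1 it was −0.28 ± 0.11, with a ratio of means of 0.821, an unadjusted p of 0.044 and an adjusted p of 0.257. Lower calls at that unadjusted p without null 1 took in 7.39% of genes.

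Lumican and asporin had the same order of libraries as decorin at its ends, with null 1 highest and null 3 lowest. Lum, a keratan sulfate proteoglycan known for its part in corneal transparency, was at 20.0, 25.5 and 21.9 in WT, against 42.8, 19.9 and 19.0 in null. Its log2 fold change was 0.17 ± 0.31 (adjusted p = 0.890, limma) and became −0.20 ± 0.14 without null 1, where both null libraries lay below every WT library. Null 2 and null 3 lay below every WT library for 2 of the 8 members, Dcn and Lum, and for 17.3% of genes. Aspn, known to bind type I collagen and TGF-beta, was at 4.57, 5.70 and 4.13 in WT, against 12.2, 4.57 and 3.89 in null. It gave 0.32 ± 0.39 on the log2 scale (adjusted p = 0.847, limma) and −0.16 ± 0.18 without null 1, and its groups overlapped with or without that library.

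Relative to Dcn, these genes moved little between libraries. The ratio of Lum to Dcn was 0.178 to 0.227 and that of Aspn to Dcn 0.0394 to 0.0505 over the 6 libraries, while Dcn itself ran from 83.7 to 241. Lum is the next family gene beside Dcn on chromosome 10, and Aspn lies on chromosome 13.

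Fibromodulin, PRELP and osteoglycin were highest in null 1, next in null 2, and within the WT range in null 3. Fmod, which modulates the assembly of type I and II collagen fibrils, was at 6.09, 7.77 and 5.94 in WT, against 12.5, 10.5 and 7.06 in null (means 6.60 ± 1.02 and 10.04 ± 2.77, SD, n = 3). Null 3 lay below WT 2, so the groups overlapped. The ratio of means was 1.52, and the log2 fold change 0.54 ± 0.22 (SE; interval 0.01 to 1.07) had an unadjusted p of 0.045 and an adjusted p of 0.810 by limma. Without null 1 it was 0.37 ± 0.21, with an unadjusted p of 0.127.

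Prelp, whose basic end binds heparin and heparan sulfate and whose 3′UTR holds the 7-letter match to miR-455-3p shown above, was at 7.09, 6.80 and 6.66 in WT, against 12.4, 9.32 and 6.90 in null. Null 3 was inside the WT range. The log2 fold change was 0.41 ± 0.21 (unadjusted p = 0.085, adjusted p = 0.810, limma) and 0.21 ± 0.16 without null 1. Ogn, known from bone and many soft tissues, was at 3.93, 5.56 and 4.48 in WT, against 8.38, 6.24 and 4.71 in null. Its groups overlapped through null 3, and it gave 0.41 ± 0.23 (unadjusted p = 0.116, adjusted p = 0.810, limma) and 0.21 ± 0.20 without null 1.

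Chondroadherin was highest in null 2, as were the cartilage collagen Col2a1 and the summed abundance of the chondrocyte list. Of that list, Comp, Cilp, Col11a1 and Col11a2 were highest in null 1, and Cytl1 and Sox9 in WT 3. Chad was at 49.4, 32.5 and 41.4 in WT, against 54.9, 62.4 and 41.9 in null (means 41.1 ± 8.47 and 53.1 ± 10.3, SD, n = 3). Null 3 lay within the WT range, and the log2 fold change was 0.37 ± 0.21 (unadjusted p = 0.118, adjusted p = 0.810, limma), or 0.33 ± 0.24 without null 1. Relative to the summed abundance of 18 chondrocyte genes, Chad was at 0.192, 0.140 and 0.141 in WT, against 0.163, 0.171 and 0.182 in null, and these ranges overlapped.

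The remaining members were near the bottom of the range. Epyc, a dermatan sulfate proteoglycan of growth plate cartilage, was at 0.129 and 0.101 in WT 1 and WT 2, was listed at 0 in WT 3, and was at 0.163, 0.618 and 0.198 in null. All null libraries were above all WT libraries, with null 2 highest as for Chad, and the exact two-sided permutation p was 0.1, the smallest possible. In a limma fit without a minimum, Epyc gave a log2 fold change of 0.48 ± 0.22 (unadjusted p = 0.074, adjusted p = 0.794). That value rests on the pseudocount and on null 2: it was 1.21 with a pseudocount of 0.1 and 0.25 without null 2, and the ratio of mean abundances was 4.27. Epyc had been listed by the study as higher in null from these same libraries, so its direction is not independent evidence. Kera, a keratan sulfate proteoglycan best known from the cornea, was at 0.0540, 0.0703 and 0.0209 in WT, against 0.162, 0.0459 and 0.0698 in null, with overlap and an exact permutation p of 0.5.

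**Figure D2:**
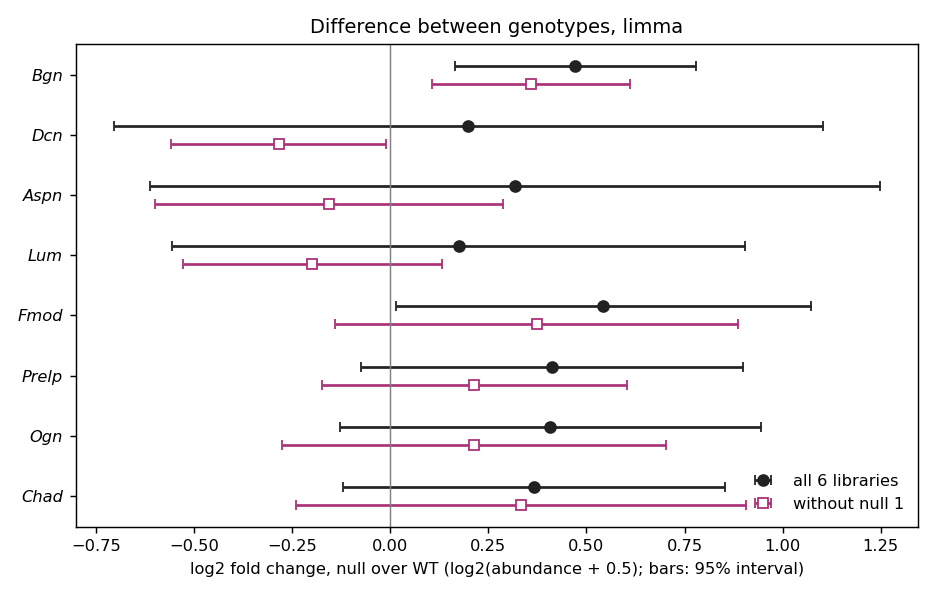
Log2 fold change of null over WT for the 8 members in the fit (x axis, log2 of abundance + 0.5, with 95% limma intervals), with all 6 libraries and without null 1. The whole interval of Bgn stays above 0 in both. The points of Fmod, Prelp, Ogn and Chad also stay above 0. Those of Dcn, Lum and Aspn go from above 0 to below 0 when null 1 is left out.

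The balance between Dcn and Bgn, and between Fmod and Lum, was spread more widely over the null libraries than over the WT libraries. Other shares went both ways. The SD was larger in null for class I, at 1.82 percentage points in WT and 5.01 in null, and for Chad, at 3.17 and 4.75. So it was for class III, Aspn, Fmod, Lum, Prelp and Epyc. It was smaller in null for class II (1.09 and 0.657), Ogn (0.272 and 0.212), Kera, and Bgn, Dcn and Chad together (1.57 and 1.07). Dcn took 37.1%, 39.8% and 38.2% of the family sum in WT 1 to 3 and 46.0%, 29.6% and 29.8% in null 1 to 3. Bgn took 30.3% to 30.8% in WT and 26.6%, 34.0% and 40.5% in null. The ratio of Bgn to Dcn was 0.816, 0.773 and 0.806 in WT, fell outside that range on the low side in null 1, at 0.577, and on the high side in null 2 and null 3, at 1.15 and 1.36. In null 2 and null 3, Bgn was thus the most abundant member, where Dcn was in the other 4 libraries. Within class II, the ratio of Fmod to Lum was 0.304, 0.305 and 0.271 in WT and 0.293, 0.530 and 0.372 in null, with null 1 inside the WT range and null 2 and null 3 above it. These ratios are descriptions and were not tested.

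**Figure D3:**
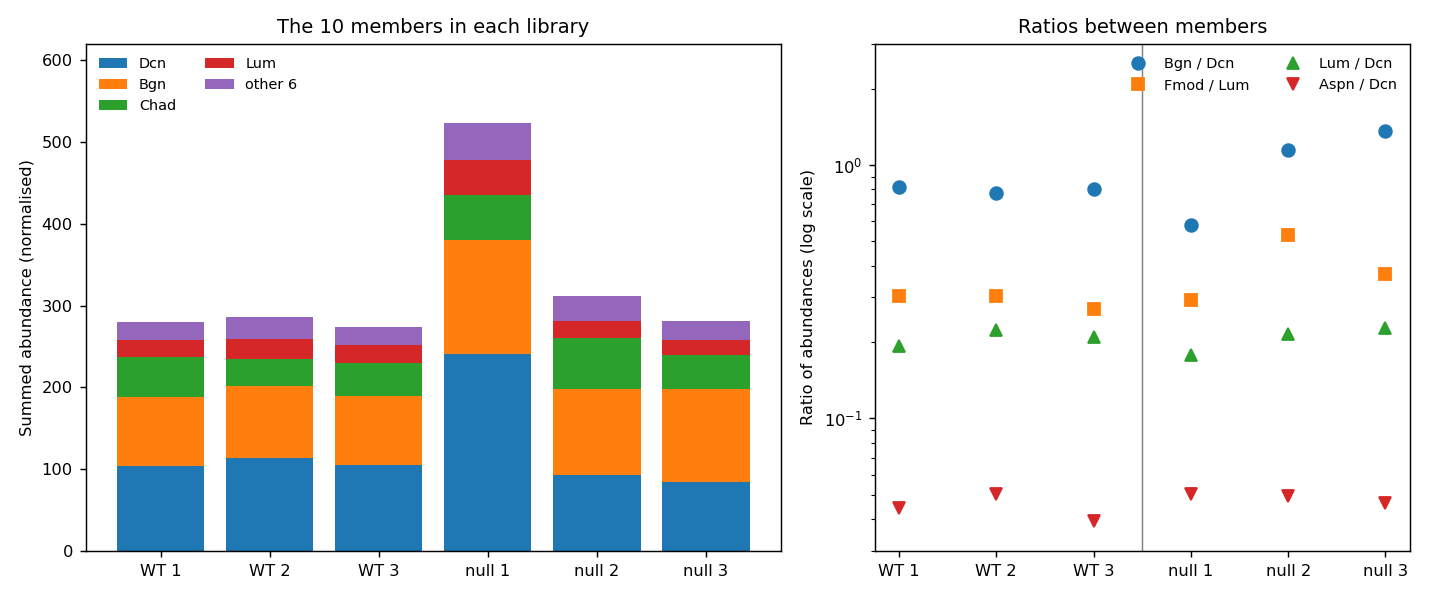
Summed abundance of the 10 members in each library, stacked by gene (Dcn, Bgn, Chad, Lum and the other 6; left, axis from 0), and ratios of member abundances on a log axis (right). Null 1 has the tallest bar at 524, and the ratio of Bgn to Dcn is 0.577 in null 1 against 1.15 and 1.36 in null 2 and null 3.

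Several marker lists of other tissues moved with the members, and their part in these results was not tested. At an unadjusted limma p under 0.05, 3.25% of all genes tested were higher in null and 2.33% lower. Without null 1 these shares were 11.3% and 7.39%, and they stand as background to the counts of every list below. Of 10 skeletal muscle genes in the fit, all had a higher mean in null, 6 had an unadjusted p under 0.05, and the median log2 fold change was 1.20; without null 1 these values were 9, 3 and 0.73. Of the 10, 2, Atp2a1 and Des, entered the fit only through their null values, as their WT means were under 1. Atp2a1 is among the 6 and among the 3, so both counts include a gene whose p is not used. Of 10 fibroblast and tendon genes, 9 had a higher mean, 3 passed that p as higher and 1 as lower, and the median log2 fold change was 0.43; without null 1, 8 had a higher mean, 1 passed in each direction and the median was 0.25. Their summed abundance was 493 to 692 in WT and 1035, 643 and 571 in null, highest in null 1 as for Dcn, Lum and Aspn, and the ratio of mean sums went from 1.25 to 1.01 without null 1. The 7 superficial zone and synovial genes summed to 258 to 301 in WT and to 687, 394 and 304 in null. The null libraries had the same order among themselves as for Fmod, Prelp and Ogn, but here null 3 was just above the WT libraries; the ratio of mean sums was 1.68, or 1.27 without null 1. Of these 7, 5 had a higher mean and 2 passed the unadjusted p, and without null 1 the numbers were 4 and 2. Among the 7, Has1 entered the fit only through its null values, as its WT mean was 0.934. Prg4, the lubricin gene and the most abundant of these, reached 547, 295 and 216 in null, against 166 to 194 in WT, a ratio of 2.00, or 1.45 without null 1. Of 15 chondrocyte genes in the fit, 14 had a higher mean in null and 2 passed the unadjusted p. The summed abundance of the list was 232 to 294 in WT and 337, 364 and 230 in null. Without null 1, 12 had a higher mean and 5 passed. Col9a1, among those 5, entered the fit only through its null values, as its WT mean was 0.880.

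The lists of bone, blood and marrow differed in direction. The 12 osteoblast and osteocyte genes summed to 1064 to 1487 in WT and to 1467, 1023 and 1101 in null. Of the 11 in the fit, 7 had a higher mean on the log2 scale and none passed the unadjusted p. The 7 include Dmp1, whose mean abundance was 7.24 in null and 7.37 in WT. Without null 1, 5 had a higher mean and 2 passed as lower. All 9 erythroid genes matched had a lower mean in null, 2 of them past the unadjusted p, and so did all 10 B cell genes, 3 of them past that p; both counts were the same without null 1. All 10 neutrophil genes had a higher mean, with none past that p, or 2 without null 1. All 8 macrophage genes had a higher mean, with 1 past that p. Without null 1, 7 did, with 4 past it. Over all genes, 3.25% were higher past that p, or 11.3% without null 1. For marrow stroma, fat and endothelium the numbers with a higher mean were 6 of 6, 6 of 7 and 5 of 6, with none past that p. Without null 1 they were 6, 5 and 5, with 1 fat gene past it. Another fat gene, Plin1, entered the fit only through its null values, as its WT mean was 0.864.

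**Figure D4:**
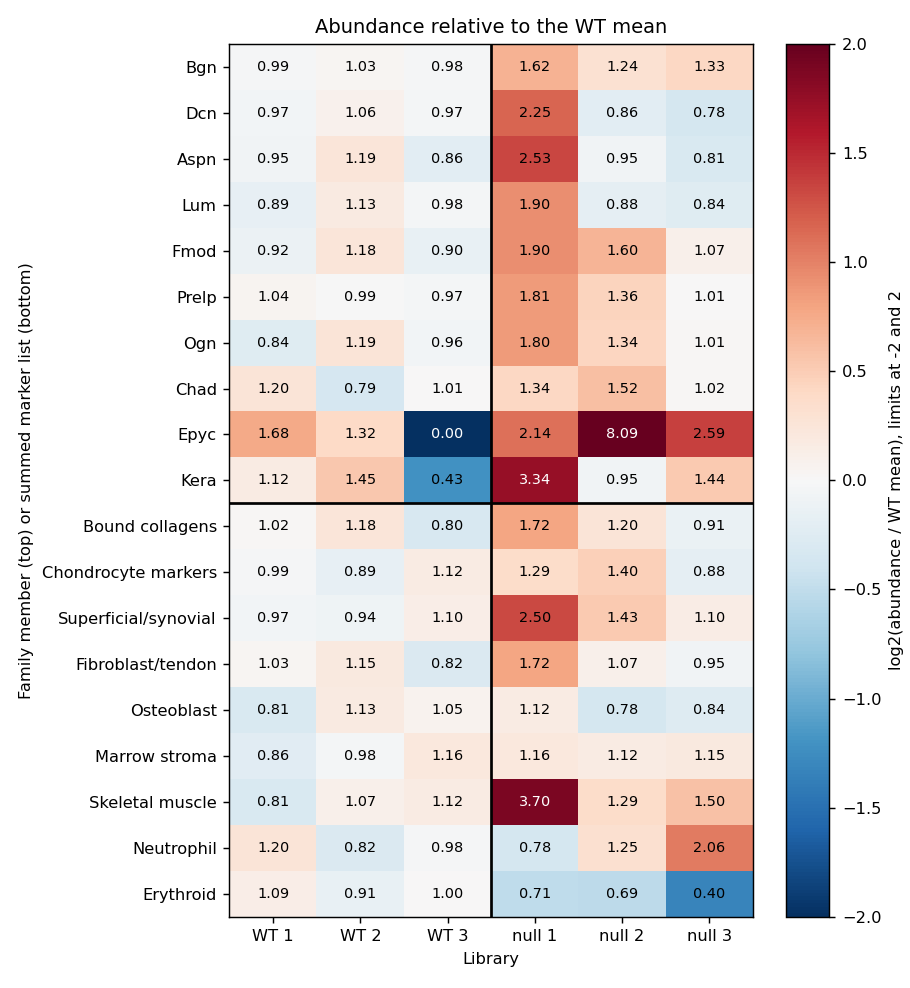
Abundance of the 10 members and summed abundance of 9 gene lists in each library, divided by the WT mean and coloured on a log2 scale that is cut at its ends (Epyc is listed at 0 in WT 3). The highest value of the row is in null 1 for 8 of the 10 members and in null 2 for Epyc and Chad. Among the lists it is in null 1 for bound collagens, superficial/synovial, fibroblast/tendon and muscle genes. It is in null 2 for the chondrocyte list.

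Of 8 other genes of the family, 4 entered the fit and 3 of these had a higher mean in null, or 2 without null 1. Tsku alone of these 4 had no overlap between WT and null, and it is given as a description because its WT mean of 0.960 was under the minimum of 1, so that it entered the fit only through its null values. Tsku, which encodes tsukushi, a secreted inhibitor of BMP signalling, was at 0.857, 1.01 and 1.01 in WT, against 2.23, 2.86 and 1.68 in null, with every null library above every WT library. Its 3′UTR held the 7-letter match to miR-455-3p, followed by an A, at base 302 of 1390, and this stretch is shown beside that of Prelp as the other 7-letter match to miR-455-3p found among these genes and the members.
Tsku, chr7:98351742-98351764, minus strand, miR-455-3p: cttttgtcTGGACTGacctgacc

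Omd, osteomodulin, a keratan sulfate proteoglycan of bone and the neighbour of Aspn and Ogn, was at 4.77 to 6.82 in WT, against 9.24, 6.99 and 5.61 in null, with overlap (log2 fold change 0.24 ± 0.22). Ecm2, a family gene on the other side of Aspn, was at 1.70 to 1.84 in WT, against 3.52, 1.48 and 1.65 in null, so that null 1 was highest and both other null libraries were below WT, as for Dcn and Lum. Ecm2 also held the 7-letter match to miR-455-5p in its 3′UTR, and Optc and Nyx each held 1 match of 6 letters. Podnl1 differed by −0.01 ± 0.23 on the log2 scale. Podn, Chadl, Optc and Nyx were under the minimum, with overlap between the groups for each.

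Few of the enzymes that build the sugar chains of these proteins passed the unadjusted p. Of 27 genes for chondroitin and dermatan sulfate synthesis, 24 entered the fit and 18 had a higher mean in null. None passed an unadjusted limma p of 0.05, and the median log2 fold change was 0.09. Without null 1, 18 had a higher mean and 6 passed as higher, where 11.3% of all genes did so. Dsel entered the fit only through its null values, as its WT mean was 0.982. Ugdh, which makes the UDP-glucuronate used for the chains, was at 27.9 to 30.0 in WT, against 32.8, 33.2 and 46.9 in null, without overlap (unadjusted p = 0.055, adjusted p = 0.810, limma). Papss2, which makes the sulfate donor, was at 5.37 to 6.11 in WT, against 5.85, 8.85 and 9.02 in null. Of 10 genes for keratan sulfate synthesis, 7 entered the fit, 4 had a higher mean and 1 passed the unadjusted p. That gene was Chst2, a sulfotransferase, at 0.843 to 0.967 in WT, against 2.05, 1.49 and 1.52 in null; its WT mean was under the minimum, so it entered the fit only through its null values and its p is not used. Without null 1, 3 had a higher mean and none of the 7 passed.

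The collagens that SLRPs bind, several of which also stand in the chondrocyte or fibroblast list, had higher means in null throughout. All 16 entered the fit and had a higher mean, 5 passed the unadjusted p, and the median log2 fold change was 0.50. Without null 1, 12 had a higher mean, 7 passed and the median was 0.49, where 11.3% of all genes passed as higher. Col9a1 entered the fit only through its null values, as its WT mean was 0.880. It was among those 7 but not among the 5. Chains of type VI collagen, which surrounds chondrocytes and to which biglycan and decorin bind, were among the 5. Col6a1 was at 7.14, 7.86 and 6.25 in WT, against 14.7, 13.4 and 13.1 in null. The groups did not overlap, the means had a ratio of 1.94 and the log2 fold change was 0.91 ± 0.13 (unadjusted p = 0.00019, adjusted p = 0.405, limma). Col6a2 was at 6.62, 7.03 and 5.49 in WT, against 13.95, 12.1 and 10.9 in null (0.90 ± 0.15, adjusted p = 0.732, limma). As for Bgn, both remained above every WT library in null 2 and null 3. The share of all genes that did so was not counted. Col1a1 and Col1a2, the chains of type I collagen, overlapped between the groups, with null 1 highest at 404 and 463 and WT means of 224 and 283.

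Of 12 genes for proteases that cut SLRPs or act on procollagen, and their helpers, 8 entered the fit and all 8 had a higher mean in null, 2 of them past the unadjusted p, or 1, Pcolce, without null 1. Pcolce, an enhancer of procollagen cleavage, was at 18.3, 20.6 and 17.2 in WT, against 35.4, 27.5 and 25.7 in null (log2 fold change 0.64 ± 0.15, adjusted p = 0.810, limma). Htra1, a serine protease of the matrix, was at 7.96 to 9.59 in WT, against 21.1, 13.2 and 9.97 in null. Mmp9 and Mmp13 overlapped between the groups.

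Of 15 genes for receptors and ligands that SLRPs bind, 14 entered the fit and all 14 had a higher mean in null, with 2 past the unadjusted p. Without null 1, 13 had a higher mean and 4 passed as higher, Met among them but not Egfr. Over all genes, 11.3% passed as higher without null 1. Met and Egfr are receptor tyrosine kinases to which decorin binds. Met was at 2.26 to 2.79 in WT, against 3.33, 4.80 and 3.95 in null, and Egfr was at 0.654 to 1.04 in WT, against 1.55, 1.46 and 1.19 in null, neither with overlap (adjusted p = 0.810 for Met, limma). The WT mean of Egfr, 0.820, was under the minimum, so it too entered the fit only through its null values. Its p is not used, though Egfr is among the 2 counted with all libraries. Tgfb1 was at 77.2 to 89.4 in WT and 83.7 to 90.2 in null, and differed by 0.09 ± 0.11 on the log2 scale. The host gene Col27a1 was at 1.76, 2.97 and 2.76 in WT, against 2.72, 3.48 and 2.07 in null, with overlap.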

How the data were processed

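Knee cartilage RNA was sequenced in 3 WT and 3 miR-455 null libraries, grouped by their titles. Per the labels, the authors used FastQC, Trim Galore, kallisto, sleuth and build mm10, for which no version is stated here. The deposited signal is the authors' normalised count of each gene; it was not whole and was treated as an abundance, so no count model was used. The deposited percent of reads aligned was read from the mapping table. A design written for normalised values was kept. Symbols came from GENCODE and matched 35866 identifiers.

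Genes with a mean of at least 1 over the 6 libraries were fitted with limma 3.58.1 (R 4.3.3) on log2(abundance + 0.5), with a trended prior, genotype as the single term and Benjamini-Hochberg adjustment; the procedure was tested on simulated data. Single values were compared by an exact two-sided permutation test. The members and lists were chosen with earlier results of these data known. Genes named are all members, all other family genes and, of each list, those past adjusted p 0.05, the most abundant and those with the smallest p, with Col27a1 and the Y-linked genes; Acan, Sox9 and Matn1 were named as defining chondrocyte genes. Alternatives were other pseudocounts, filters, scalings, variance models, library weights, the label number as a block and each library left out. The pair of libraries most alike had a median absolute log2 difference of 0.158, so none was counted as a duplicate. Protein sequences were not analysed here. Figures used matplotlib 3.10.9.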

Additional observations from a re-analysis of the deposited data

How the results depend on the processing

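Of 143 values for the 8 members under the alternatives, 138 kept their direction and side of an adjusted p of 0.05, and 5 changed sign. The filters, variance models and label-number block cannot move a fold change, so direction was fixed in advance for those values. No member passed the adjusted p in the main fit, so keeping that side says little. With gene-by-gene library weights Dcn gave −0.090 and Lum −0.066 on the log2 scale. Without null 1 Dcn gave −0.28, Lum −0.20 and Aspn −0.16. Leaving out each library in turn gave −0.28 to 0.48 for Dcn, −0.20 to 0.38 for Lum and −0.16 to 0.61 for Aspn, and 0.36 to 0.55 for Bgn. The members with a higher mean numbered 8, and 5 to 8 when a library was left out (5 without null 1). Those past an unadjusted p of 0.05 (limma) numbered 2, but 1 with no filter, with totals equalised without the marrow, blood and muscle lists, with median-of-ratios scaling and with no trend, 5 with library weights, and 1 to 5 when a library was left out (5 without null 3; 1 without WT 1, WT 3 or null 2). None passed adjustment under any alternative tried.

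Over all genes, 4 passed an adjusted p of 0.05: 2 with a pseudocount of 0.1 or no filter, 1 with a minimum of 5 (as a mean or in 3 libraries), and 1 to 14 when a library was left out (14 without WT 3, 13 without null 1). At the unadjusted p there were 714: 451 with a minimum of 5 in 3 libraries, 453 with a mean of 5, 1116 with no filter, 2469 with library weights, and 416 to 2390 when a library was left out (2390 without null 1). Scaling to equal totals moved the median log2 fold change of all genes from 0.02 to 0.13 and the split at that p from 416 higher and 298 lower to 810 and 105. Deviations of WT and null libraries with the same number correlated at −0.13, 0.05 and −0.03, so the numbers did not pair them; the replicate block left 1 gene past adjustment and 607 past the unadjusted p, and changed no call of a member.

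Other genes near no difference changed sign. Library weights gave −0.016 for B4galt1, −0.091 for Ecm2, −0.0040 for Itgb1, −0.043 for Spp1 and 0.088 for Cytl1. Equal totals gave 0.091 for Cytl1, 0.012 for Fabp4 and 0.085 for Podnl1, and 0.0026 for Podnl1 without the marrow, blood and muscle lists. Leaving out a library gave −0.16 to 0.37 for B3gnt2, −0.0077 to 0.17 for B4galt1, −0.091 to 0.18 for Clu, −0.15 to 0.37 for Col1a2, −0.070 to 0.28 for Col27a1, −0.21 to 0.17 for Cytl1, −0.15 to 0.36 for Ecm2, −0.38 to 0.17 for Fabp4, −0.11 to 0.65 for Mmp13, −0.11 to 0.61 for Mmp9, −0.18 to 0.13 for Podnl1, −0.018 to 0.68 for S100a8, −0.086 to 0.35 for Spp1 and −0.065 to 0.20 for Uty. The causes were not tested. The read depth behind each abundance is unknown, which limits the low members Epyc and Kera most. Without a filter Epyc gave 0.25 to 0.62 when a library was left out, and 0.29 and 1.21 with pseudocounts of 1 and 0.1.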
